A study of Mus musculus with 38 samples.

Results

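A set of 10 genes for plasma membrane amino acid transporters was followed in mouse CD4 T cells of 5 genotypes, before and after 24 h of stimulation. The members were the rows of the count table whose Entrez Gene numbers belong to Slc7a5, Slc3a2, Slc7a1, Slc7a6, Slc7a11, Slc1a4, Slc1a5, Slc38a1, Slc38a2 and Slc43a1, which is 10 of 24028 genes. On GRCm38.p6 the genes lie at chr8:121881146-121907686 (Slc7a5), chr19:8706882-8723369 (Slc3a2), chr5:148327410-148399904 (Slc7a1), chr8:106168219-106198714 (Slc7a6), chr3:50364936-50499087 (Slc7a11), chr11:20302180-20332713 (Slc1a4), chr7:16781334-16798274 (Slc1a5), chr15:96571418-96643438 (Slc38a1), chr15:96687392-96699728 (Slc38a2) and chr2:84838855-84863586 (Slc43a1). The rule goes by gene identity and uses no measured value, though the set was drawn up with earlier results of these data known. All 10 passed the filter on low counts, 1 of them on stimulated libraries: Slc7a11 stood at 0 to 0.418 CPM (counts scaled to library size) in every naive library.

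A T cell that leaves rest must take up amino acids from outside to build protein, and it does so through carriers that differ in what they carry and in whether they exchange, import or depend on sodium. SLC7A5 carries leucine and other large neutral amino acids only when bound to the heavy chain SLC3A2, and the same heavy chain also holds SLC7A6 and SLC7A11. SLC1A5, SLC38A1 and SLC38A2 carry glutamine and other small neutral amino acids, SLC1A4 carries serine, alanine and cysteine, SLC7A1 and SLC7A6 carry arginine and lysine, SLC7A11 imports cystine for glutathione synthesis, and SLC43A1 carries large neutral amino acids without sodium. Leucine taken up in this way feeds the growth kinase complex mTORC1, and loss of Slc7a5 or Slc1a5 is known to impair the response of mouse T cells to antigen.

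Naive CD4 T cells were enriched by kit from the lymph nodes and spleen of single mice, and polyA RNA was sequenced either directly (naive) or after 24 h in wells carrying antibodies to CD3 (0.5 µg/ml) and CD28 (0.2 µg/ml), with interleukin-2 (50 U/ml). T1792tg/tg mice carry CD4cre and a miR-17∼92 transgene in Rosa26 behind a floxed stop (4 naive and 4 stimulated libraries). T1792delta/delta mice carry CD4cre and a floxed miR-17∼92 cluster (4 and 4), rescue mice carry CD28-/- with CD4cre and the same transgene (3 and 3), CD28-/- mice lack only CD28 by label (4 and 4), and wt mice are wild type (4 and 4). CD4cre acts in T cells from a stage in the thymus that precedes the split of CD4 and CD8 cells. No group carried Cre alone, and no culture was left unstimulated, so Cre, line and cluster effects cannot be told apart, and neither can those of culture, interleukin-2 and the antibodies.

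The libraries held 22267060 to 28020721 counts each at 24 h and 19427291 to 24982429 when naive. The Mir17 precursor stood at 6.55 ± 0.9 CPM in naive T1792tg/tg cells (SD, n = 4) and 6.88 ± 1.84 CPM (n = 3) in rescue cells of the same state. In naive wt cells it stood at 0.334 ± 0.0969 CPM (n = 4). Naive T1792delta/delta libraries had 0, 0, 2 and 3 counts of it, against 9, 5, 8 and 7 in naive wt libraries. At 24 h it had 0 counts in T1792delta/delta cells, against 3, 3, 4 and 3 in wt libraries, so the check of the deletion rests on few counts. Cd28 was counted at 539 ± 40.4 CPM in CD28-/- cells and at 342 ± 35.5 CPM in wt cells at 24 h, so the count does not check that label, which is taken as given. At Rosa26, Gt(ROSA)26Sor stood at 10.8 ± 0.282 CPM in T1792delta/delta and 0.0688 ± 0.0596 CPM in wt cells at 24 h. When naive the levels were 13.6 ± 1.4 and 0.215 ± 0.101 CPM. The cluster's host transcript Mir17hg stood at 172 ± 11.8 CPM in T1792delta/delta and 20.7 ± 2.44 CPM in wt cells at 24 h. The stated T1792delta/delta genotype names no change at Rosa26, and the source of these differences was not tested. Markers of CD4 T cells summed to 2160 to 4760 CPM in every library, with none of the 6 at 0. By Xist, all rescue and CD28-/- mice were female, against 3 of 4 wt, 2 of 4 T1792delta/delta and 1 of 4 T1792tg/tg mice. In bulk RNA, fewer cells of a type and less RNA per cell cannot be told apart.

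The cluster that the genotypes alter encodes microRNAs of 4 seed families, shown here because a seed match in a 3′ untranslated region is how such a microRNA usually finds a transcript. Capitals mark the seed, bases 2 to 8, of the mature strands (RefSeq, GRCm38.p6, chromosome 14, plus strand).
mmu-miR-17-5p: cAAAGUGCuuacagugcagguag
mmu-miR-20a-5p: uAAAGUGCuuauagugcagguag
mmu-miR-18a-5p: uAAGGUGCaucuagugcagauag
mmu-miR-19a-3p: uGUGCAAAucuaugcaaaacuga
mmu-miR-19b-3p: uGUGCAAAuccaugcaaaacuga
mmu-miR-92a-3p: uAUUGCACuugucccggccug
miR-17-5p and miR-20a-5p share one seed, and miR-19a-3p and miR-19b-3p share another. The reverse complement of each seed was sought, on the strand of the transcript, in the longest 3′ untranslated stretch that GENCODE vM21 gives a gene on GRCm38: GCACTTT for miR-17-5p and miR-20a-5p, which 14.1% of tested genes held, GCACCTT for miR-18a-5p (9.17%), TTTGCAC for the miR-19 pair (12.7%) and GTGCAAT for miR-92a-3p (7.43%).

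Of the 10 transporters 3, Slc7a1, Slc7a11 and Slc38a2, held a match, against 32.7% of the 12503 tested genes with such a region, and the other 7 held none in that window. The matches are printed with capitals on the seed match and 11 bases on each side, all from the minus strand.
Slc7a1, chr5:148330776-148330804, miR-17-5p and miR-20a-5p: ccaccgtccagGCACTTTgtctcctaggc
Slc7a11, chr3:50367055-50367083, miR-17-5p and miR-20a-5p: ctgggttctgaGCACTTTgtgtgatgggg
Slc7a11, chr3:50365580-50365608, miR-18a-5p: gtaggagcatgGCACCTTtgttctggtga
Slc38a2, chr15:96689207-96689235, miR-92a-3p: ggtaccaaataGTGCAATtgggtaagaca
These regions are long, 5030 bases in Slc7a1, 7364 in Slc7a11 and 2735 in Slc38a2. The matches are a description of the letters and show no binding.

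Levels of different genes were compared only per kilobase of the deposited gene length. In wt cells at 24 h the order was Slc1a5 at 224 ± 19.3, Slc7a5 at 83 ± 6.43, Slc3a2 at 80.4 ± 7, Slc38a2 at 37.4 ± 1.43, Slc7a1 at 33 ± 3.37, Slc7a6 at 27.3 ± 1.49 and Slc38a1 at 22.7 ± 1.57 CPM per kilobase (SD, n = 4). Slc1a4 followed at 3.47 ± 0.333, Slc43a1 at 1.28 ± 0.213 and Slc7a11 at 0.0713 ± 0.0234 CPM per kilobase. In naive wt cells Slc38a2 stood first at 196 ± 21, ahead of Slc1a5 at 99.7 ± 14.3 and Slc3a2 at 85.3 ± 10.6 CPM per kilobase, while Slc7a5 stood at 21.2 ± 2.12 CPM per kilobase. The leucine carrier Slc7a5 was therefore level with its heavy chain partner Slc3a2 at 24 h, where their ranges of 75.1 to 89 and 73.8 to 89.8 CPM per kilobase overlapped, and below it when naive.

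**Figure D1:**
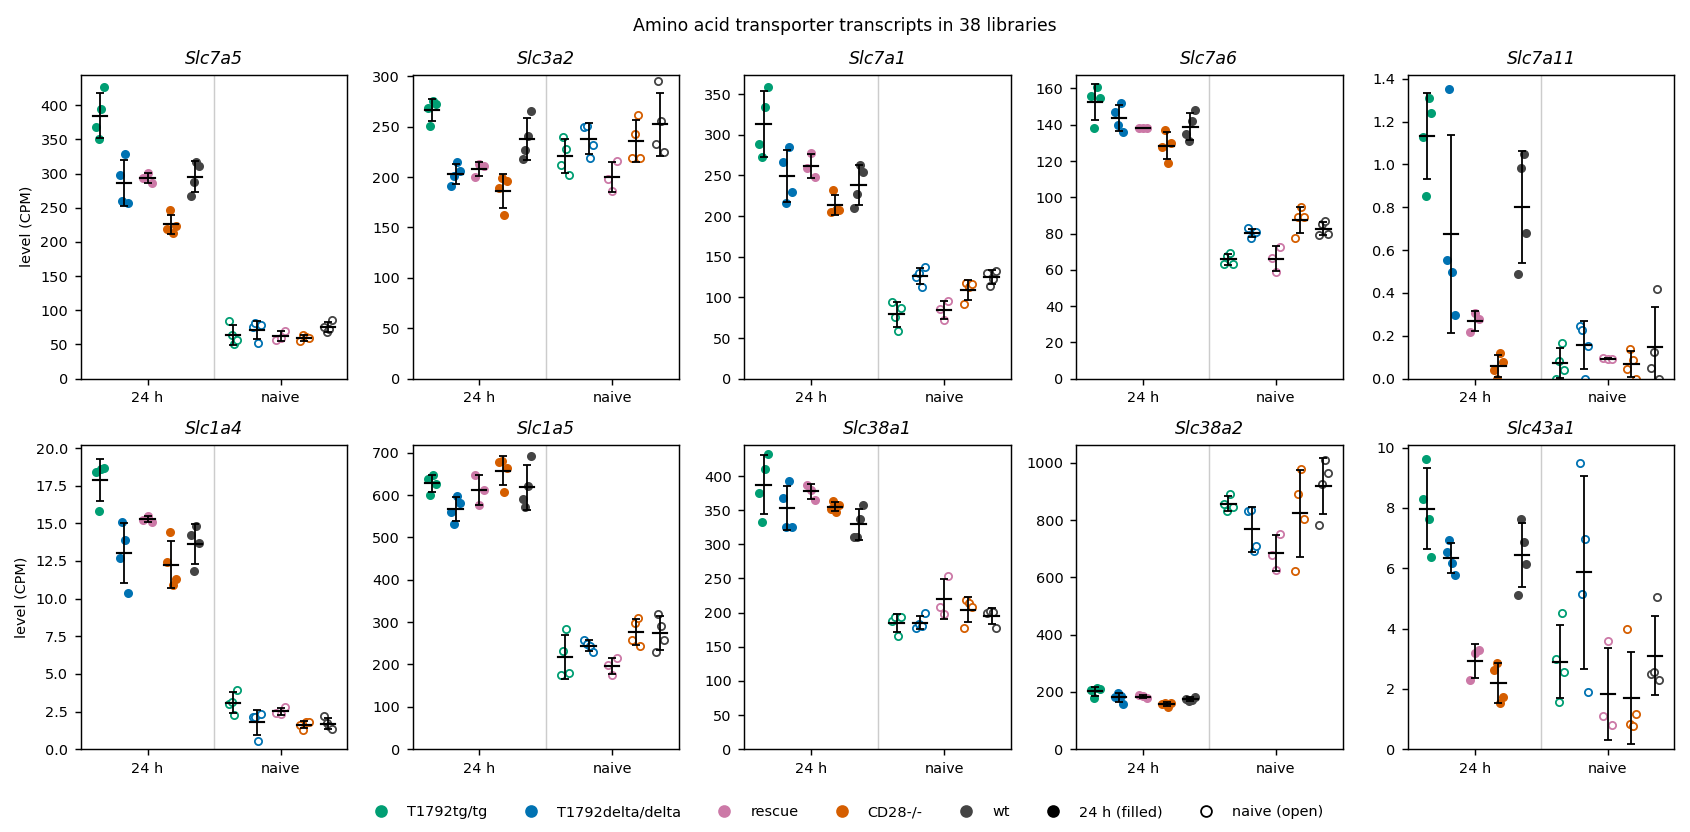
Level in CPM (linear axes that start at 0, one panel per gene) of the 10 transporters in each of 38 libraries, filled for 24 h and open for naive, coloured by genotype; bars give the mean and SD of a group. Slc38a2 is high in naive cells (621 to 1010 CPM) and low at 24 h (147 to 212 CPM), Slc7a5 the reverse (213 to 426 CPM at 24 h, 50.3 to 85.6 CPM naive), and Slc3a2 lies at about the same height in both states.

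Stimulation of wt cells was the first comparison, 4 libraries at 24 h against 4 naive ones. Changes are log2 fold changes ± SE from edgeR's quasi-likelihood fit, and a gene was called at an adjusted p below 0.05 over all 13650 tested genes. Slc7a11 passed the low-count filter only through stimulated libraries and is counted apart. Of the other 9 transporters 7 rose and 1 fell. Among all tested genes 85.2% were called, 41.3% higher and 43.9% lower. The median log2 fold change was 0.94 over the 9 members and -0.06 over all genes.

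Slc7a5, the leucine carrier, had 267, 287, 317 and 311 CPM in wt cells at 24 h, against 75.8, 67.7, 72.5 and 85.6 CPM in naive wt cells. The ranges lie far apart, and Slc7a5 was 3.92-fold higher (log2 fold change 1.97 ± 0.12, adjusted p = 5.7e-17). Slc3a2, its heavy chain, had 218, 227, 241 and 265 CPM at 24 h, against 233, 295, 256 and 225 CPM in naive cells. These libraries overlap, with a log2 fold change of -0.08 ± 0.08 (adjusted p = 0.32), so the pair did not move together at the transcript level. With only genes at a mean of at least 5 CPM tested, Slc3a2 had -0.17 and was called (adjusted p = 0.036).

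The glutamine carriers went in opposite directions. Slc1a5 had 591, 571, 622 and 692 CPM at 24 h, against 229, 320, 292 and 258 CPM in naive wt cells, and rose 2.25-fold (log2 1.17 ± 0.11, adjusted p = 3.7e-12). Slc38a1 had 310, 311, 337 and 358 CPM at 24 h, against 200, 203, 201 and 178 CPM in naive cells, a 1.68-fold increase (adjusted p = 2.1e-10). Slc38a2, a carrier that cells deprived of amino acids are known to raise, had 177, 168, 173 and 184 CPM at 24 h, against 782, 925, 1010 and 965 CPM in naive wt cells. It fell to 0.191 of the naive level (log2 fold change -2.39 ± 0.10, adjusted p = 5.7e-22), the only member with a decrease in wt cells that passed the test.

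Among the carriers of cationic amino acids, Slc7a1 had 210, 227, 263 and 254 CPM at 24 h, against 130, 114, 122 and 133 CPM in naive cells (log2 fold change 0.94 ± 0.11, adjusted p = 2.1e-09). Slc7a6 had 131 to 148 CPM at 24 h, against 79.4 to 86.7 CPM in naive cells (0.75 ± 0.06, adjusted p = 3.9e-13). The fold of Slc1a4, the serine and alanine carrier, was higher than that of any other member in wt cells: 14.2, 11.8, 14.8 and 13.7 CPM at 24 h, against 2.2, 1.73, 1.51 and 1.32 CPM in naive cells (8.04-fold, log2 3.01 ± 0.20, adjusted p = 5.2e-16). Slc7a11, the cystine importer, was counted 11, 26, 27 and 17 times per library at 24 h, against 1, 3, 10 and 0 times in naive libraries (log2 fold change 2.33 ± 0.58, adjusted p = 4e-04). At 0.49 to 1.05 CPM it remained the scarcest of the 10, and a gene kept only through the state where it is high had to differ, so the test adds nothing to these values. Slc43a1 had 5.12, 7.64, 6.86 and 6.13 CPM at 24 h, against 2.5, 2.56, 5.06 and 2.29 CPM in naive cells (1.05 ± 0.40, adjusted p = 0.016).

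Markers of CD4 T cells and of other cells were mostly lower at 24 h. Of 6 CD4 T cell markers 5 were lower and 1 higher (summed 2480 to 2920 CPM at 24 h, against 3930 to 4560 CPM in naive wt libraries), and of 5 regulatory T cell markers 3 were lower and 1 higher (58.6 to 66.3 CPM, against 82.9 to 98.4 CPM). All 8 B cell markers were lower in wt cells at 24 h (summed 27.6 to 71.8 CPM, against 162 to 336 CPM in naive libraries), as were all 9 myeloid markers (4.35 to 9.55 CPM, against 108 to 153 CPM), 5 of 7 NK and CD8 cell markers (25.7 to 36.6 CPM, against 81.8 to 89.6 CPM) and the 3 red cell markers in the table (4.91 to 6.86 CPM, against 310 to 949 CPM). Their part in the changes of the transporters was not tested.

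The other genotypes answered stimulation with much the same pattern. Of the 9 members other than Slc7a11, 8 rose and 1 fell in T1792tg/tg cells, where 85.1% of all tested genes were called, 41% higher and 44.1% lower. In T1792delta/delta cells 6 rose and 2 fell (all genes 85.1%, 41.4% higher and 43.7% lower). In rescue cells 6 rose and 1 fell (79.7%, 38.8% higher and 40.8% lower), and in CD28-/- cells 6 rose and 2 fell (80.9%, 39.7% higher and 41.2% lower). Slc7a5, Slc7a1, Slc7a6, Slc1a4, Slc1a5 and Slc38a1 rose and Slc38a2 fell in all 5 genotypes, and each of these calls held under every alternative tried. Slc7a5 rose by 2.59 ± 0.12 in T1792tg/tg, 1.99 ± 0.12 in T1792delta/delta, 2.25 ± 0.14 in rescue and 1.92 ± 0.12 in CD28-/- cells, on the log2 scale.

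**Figure D2:**
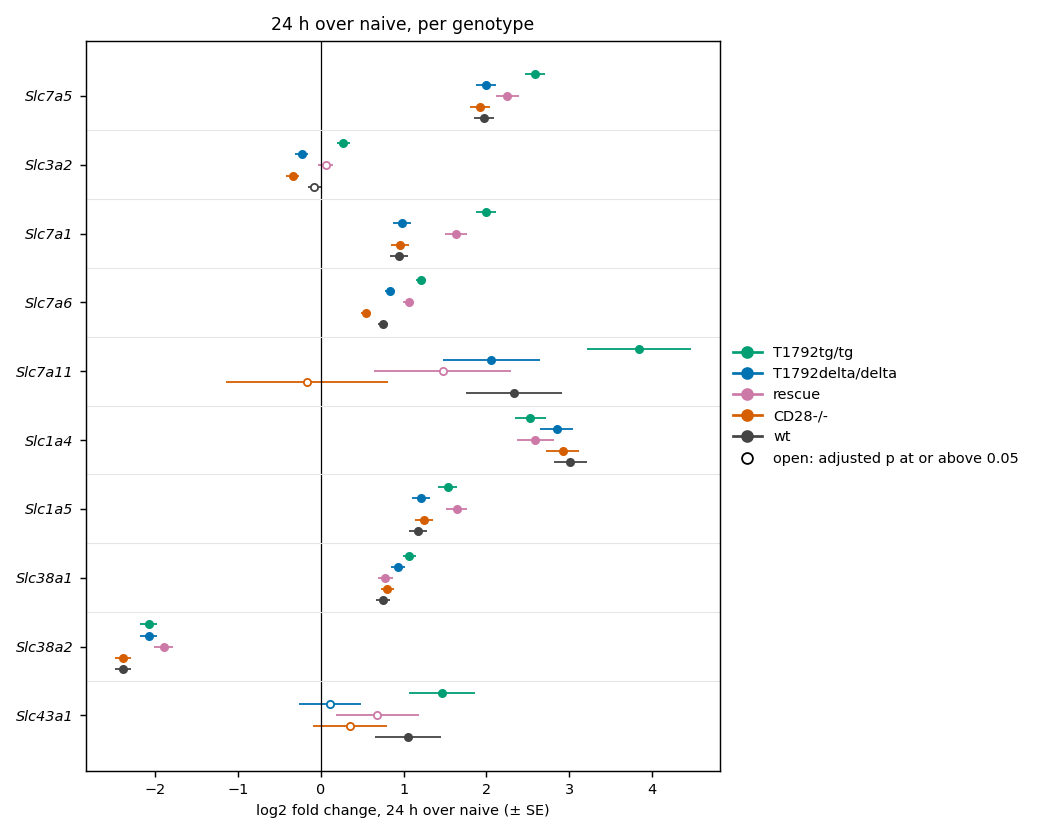
Log2 fold change of 24 h over naive cells (x axis, points with SE) for the 10 transporters (rows) in the 5 genotypes (colours); open points had an adjusted p of 0.05 or more. Points of Slc1a4 lie between 2.53 and 3.01, those of Slc38a2 between -2.39 and -1.90, and those of Slc3a2 on both sides of 0, between -0.34 and 0.27.

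Slc3a2 changed sign with genotype. It rose by 0.27 ± 0.08 in T1792tg/tg cells (adjusted p = 0.002), fell by 0.23 ± 0.08 in T1792delta/delta cells (adjusted p = 0.0091) and fell by 0.34 ± 0.08 in CD28-/- cells (adjusted p = 0.00027), and it had 0.06 ± 0.09 in rescue cells (adjusted p = 0.59). Slc7a11 rose by 3.84 ± 0.63 in T1792tg/tg and by 2.06 ± 0.59 in T1792delta/delta cells. In rescue cells it had 1.47 ± 0.83 (adjusted p = 0.1), and in CD28-/- cells, with 6 counts over all 4 libraries in either state, -0.17 ± 0.98 (adjusted p = 0.88).

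The difference between responses was tested as an interaction. The response of T1792tg/tg cells exceeded that of wt cells for 4 of 10 members, where 16% of all genes were called and 8.59% were higher: Slc7a1 by 1.05 ± 0.16 (adjusted p = 3.9e-05), Slc7a5 by 0.62 ± 0.17 (adjusted p = 0.01), Slc7a6 by 0.47 ± 0.09 (adjusted p = 0.00055) and Slc3a2 by 0.36 ± 0.11 (adjusted p = 0.026). The response of rescue cells exceeded that of CD28-/- cells for 4 of 10 as well (12.8% of all genes, 6.96% higher): Slc7a1 by 0.67 ± 0.17 (adjusted p = 0.0086), Slc7a6 by 0.51 ± 0.10 (adjusted p = 0.00049), Slc38a2 by 0.49 ± 0.14 (adjusted p = 0.023) and Slc3a2 by 0.39 ± 0.12 (adjusted p = 0.029). Of the 10 differences, Slc7a11 included, 9 were positive for T1792tg/tg over wt and 8 for rescue over CD28-/- cells. The share of positive signs over all genes was not taken, and the genes are not replicates of 1 effect. Over the 9 members other than Slc7a11 the medians were 0.36 and 0.39, against -0.02 and 0.01 over all genes. For Slc38a2 the positive sign means a smaller decrease, -1.90 ± 0.11 in rescue cells against -2.39 ± 0.10 in CD28-/- cells.

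Not all of these calls were equally firm. With the replicate number within genotype as a block, Slc3a2 had 0.36 in the T1792tg/tg interaction (adjusted p = 0.066) and 0.39 in the rescue interaction (adjusted p = 0.07). With only the compared groups in the fit, Slc3a2 missed the threshold in the T1792tg/tg interaction (0.35, adjusted p = 0.052) and Slc38a2 in the rescue interaction (0.47, adjusted p = 0.058). Slc3a2 lost its call in the T1792tg/tg interaction without 24 h T1792tg/tg 3 or 4, naive T1792tg/tg 4, 24 h wt 1 or 2, or naive wt 2 (0.27 to 0.35, adjusted p up to 0.084), and in the rescue interaction without any of 7 libraries, namely 24 h rescue 2 or 3, naive rescue 1 or 2, 24 h CD28-/- 3, and naive CD28-/- 2 or 3 (adjusted p up to 0.081). Slc38a2 lost its call in the rescue interaction without 24 h rescue 2, naive rescue 2 or naive CD28-/- 3 (adjusted p up to 0.067). The calls of Slc7a1, Slc7a5 and Slc7a6 held throughout.

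For T1792delta/delta against wt cells no difference in response passed the test (0 of 10 by edgeR and by DESeq2, 1 at an unadjusted p under 0.05, background 6.1%). Between CD28-/- and wt cells 0 of 10 passed by edgeR and 1 by DESeq2, with 3 at an unadjusted p under 0.05, where 43.3% of all genes passed. The 1 was Slc3a2 (-0.26, adjusted p = 0.046 by DESeq2). Slc7a5 differed by -0.05 ± 0.17 between these responses, Slc1a5 by 0.07 ± 0.15 and Slc38a2 by 0.00 ± 0.13.

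At 24 h, CD28-/- cells were set against wt cells. Of the 9 members other than Slc7a11, 3 were lower and 0 higher, where 51.5% of all genes were called and 27.8% were lower. Slc7a11, which the filter kept through groups other than CD28-/-, was lower as well. It had 1, 0, 3 and 2 counts in CD28-/- libraries (0.0418, 0, 0.121 and 0.0755 CPM), against 11, 26, 27 and 17 counts in wt libraries (0.49, 0.983, 1.05 and 0.681 CPM). The groups are well apart, with a log2 fold change of -3.62 ± 0.66 (adjusted p = 2.3e-05). The filter kept the gene through groups where it is high, so this p adds nothing to the counts. Slc43a1 had 2.64, 2.85, 1.53 and 1.74 CPM in CD28-/- cells, against 5.12, 7.64, 6.86 and 6.13 CPM in wt cells (-1.56 ± 0.41, adjusted p = 0.0016).

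The leucine carrier and its heavy chain were lower by a smaller margin. Slc7a5 had 219, 246, 213 and 224 CPM in CD28-/- cells, against 267, 287, 317 and 311 CPM in wt cells (-0.39 ± 0.12, adjusted p = 0.0055). Slc3a2 had 189, 199, 162 and 196 CPM in CD28-/- cells, against 218, 227, 241 and 265 CPM in wt cells (-0.35 ± 0.08, adjusted p = 0.00038). For 5 of 10 members the CD28-/- libraries lay below every wt library, which held for 29.6% of all genes. These were the 4 called genes and Slc38a2 (147 to 162 CPM, against 168 to 184 CPM), which was not called. For the 4, called on these same libraries, the lack of overlap adds no further support. The calls of Slc7a5, Slc3a2 and Slc43a1 held under every alternative and without any 1 library, and that of Slc7a11 under all but the filter at a mean of 5 CPM, which leaves it untested.

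The main glutamine carrier did not follow. Slc1a5 had 607 to 681 CPM in CD28-/- cells and 571 to 692 CPM in wt cells at 24 h (0.09 ± 0.11, adjusted p = 0.52), and the differences of Slc7a1, Slc7a6, Slc1a4, Slc38a1 and Slc38a2 lay between -0.16 and 0.11 with adjusted p of 0.14 or more. A p that misses the threshold does not show equal levels. Of these, Slc38a1 (0.15, adjusted p = 0.02) and Slc38a2 (-0.12, adjusted p = 0.031) passed when only the libraries of the compared groups were fitted. Beside these values, 5 of 6 CD4 T cell markers were higher in CD28-/- cells (summed 3110 to 3630 CPM, against 2480 to 2920 CPM in wt cells), and of 7 NK and CD8 cell markers 1 was higher and 4 lower (25.7 to 28.4 CPM, against 25.7 to 36.6 CPM). Of 5 regulatory T cell markers 2 were higher and 3 lower (61 to 75.3 CPM, against 58.6 to 66.3 CPM), 2 of 8 B cell markers were higher (59.2 to 86.9 CPM, against 27.6 to 71.8 CPM), and so were 2 of 9 myeloid markers (5.22 to 10.6 CPM, against 4.35 to 9.55 CPM). The part of these markers was not tested.

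The transgene was then read at 24 h against wt cells. In T1792tg/tg cells 3 members were higher and 0 lower, where 12.5% of all genes were called and 6.1% were higher. Slc7a5 had 368, 350, 394 and 426 CPM in T1792tg/tg cells, against 267, 287, 317 and 311 CPM in wt cells (0.38 ± 0.12, adjusted p = 0.027). Slc7a1, a gene with a miR-17 seed match, had 288, 272, 334 and 359 CPM, against 210, 227, 263 and 254 CPM (0.39 ± 0.11, adjusted p = 0.017). In both the lowest T1792tg/tg library stood above the highest wt library, which only describes genes already called on these libraries. Slc38a1 had 375, 333, 410 and 432 CPM, against 310, 311, 337 and 358 CPM, with overlap (0.24 ± 0.08, adjusted p = 0.049). All 10 log2 fold changes were positive, with a median of 0.27 over the members and -0.01 over all genes.

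These increases rested on few libraries. Slc7a5 lost its call without T1792tg/tg 3 or 4 or wt 1 or 2 (0.33 to 0.37, adjusted p up to 0.11), Slc7a1 without T1792tg/tg 3 or 4 or wt 1 (0.32 to 0.36, adjusted p up to 0.098), and Slc38a1 without T1792tg/tg 1, 3 or 4 or wt 1, 2 or 3. With a term for sex 1 of the 3 passed, Slc7a1, and Slc7a5 had 0.32 (adjusted p = 0.082). In these libraries 2 of 7 NK and CD8 cell markers were higher in T1792tg/tg cells (summed 39.3 to 56.1 CPM, against 25.7 to 36.6 CPM in wt cells), and 2 of 5 regulatory T cell markers (69.3 to 77.1 CPM, against 58.6 to 66.3 CPM). Of 6 CD4 T cell markers 3 were lower (2160 to 2570 CPM, against 2480 to 2920 CPM). Their part was not tested.

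By group means the wt level of Slc3a2, 238 ± 20.7 CPM, lay between those of T1792tg/tg and T1792delta/delta cells. It had 268, 251, 275 and 272 CPM in T1792tg/tg cells, against 191, 201, 215 and 206 CPM in T1792delta/delta cells, a log2 fold change of 0.39 ± 0.08 (adjusted p = 2e-04). Slc7a5 had 350 to 426 CPM in T1792tg/tg cells, against 257 to 328 CPM in T1792delta/delta cells (0.43 ± 0.12, adjusted p = 0.0039). Both held throughout. Slc7a1 (0.33 ± 0.11, adjusted p = 0.02) and Slc1a4 (0.46 ± 0.17, adjusted p = 0.03) were also higher, which makes 4 of 10 (33.9% of all genes called, 16.6% higher). Slc7a1 lost its call without T1792tg/tg 3 or 4 or T1792delta/delta 2 or 4, and Slc1a4 without T1792tg/tg 1, 3 or 4 or T1792delta/delta 1 or 4 (adjusted p up to 0.12). In the same comparison 4 of 5 regulatory T cell markers were higher and 1 lower (summed 69.3 to 77.1 CPM in T1792tg/tg cells, against 47.1 to 59.9 CPM in T1792delta/delta cells), and 3 of 7 NK and CD8 cell markers were higher and 1 lower (39.3 to 56.1 CPM, against 17.9 to 30.4 CPM). Of 3 red cell markers 2 were lower (1.05 to 7.9 CPM, against 11.7 to 88.5 CPM), and 2 of 6 CD4 T cell markers were lower (2160 to 2570 CPM, against 2610 to 2840 CPM). Their part was not tested.

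Against wt cells at 24 h, T1792delta/delta cells had 1 of 10 members called (16.2% of all genes, 8.47% lower). Slc3a2 had 191, 201, 215 and 206 CPM in T1792delta/delta cells, against 218, 227, 241 and 265 CPM in wt cells (-0.23 ± 0.08, adjusted p = 0.045). The call was lost without T1792delta/delta 1, 2 or 4 or wt 2, 3 or 4 (-0.25 to -0.17, adjusted p up to 0.19), and with a term for sex (adjusted p = 0.052). The other 9 members lay between -0.25 and 0.10. In this comparison 2 of 5 regulatory T cell markers were lower (47.1 to 59.9 CPM, against 58.6 to 66.3 CPM in wt cells). Of 7 NK and CD8 cell markers 1 was lower (17.9 to 30.4 CPM, against 25.7 to 36.6 CPM). Of 6 CD4 T cell markers 1 was lower (2610 to 2840 CPM, against 2480 to 2920 CPM). Of 3 red cell markers 1 was higher (11.7 to 88.5 CPM, against 4.91 to 6.86 CPM). Their part was not tested.

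In rescue cells at 24 h the transgene was read on a CD28-/- background. Slc7a5 had 294, 301 and 286 CPM in rescue cells, against 219, 246, 213 and 224 CPM in CD28-/- cells (0.38 ± 0.13, adjusted p = 0.029), and it was the 1 of 10 members called (18.4% of all genes, 9.52% higher). That call was lost without any 1 of the 3 rescue libraries, or without CD28-/- 1, 3 or 4, with values of 0.36 to 0.40 and adjusted p up to 0.11. Ranges did not overlap for 8 of 10 members, all higher in rescue cells, which held for 19.3% of all genes. These included Slc7a5, already called on these libraries, and Slc7a11, which the filter kept through groups other than these. Some gaps were very small. The lowest rescue library had 200 CPM of Slc3a2, 365 of Slc38a1 and 138 of Slc7a6, against 199, 363 and 137 CPM in the highest CD28-/- library. The lack of overlap is a description and adds no support to the test. With only the compared groups in the fit 4 were called, Slc7a5, Slc7a1 (0.28, adjusted p = 0.0042), Slc1a4 (0.30, adjusted p = 0.035) and Slc38a2 (0.21, adjusted p = 0.0086).

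Slc7a11 had 6, 8 and 8 counts in rescue libraries (0.217, 0.308 and 0.278 CPM), against 1, 0, 3 and 2 counts in CD28-/- libraries, a log2 fold change of 2.05 ± 0.79 that missed the threshold (adjusted p = 0.069; 2.16 with adjusted p = 0.044 by DESeq2). Against wt cells rescue cells were lower for Slc7a11 (-1.57 ± 0.56, adjusted p = 0.028) and Slc43a1 (2.28, 3.2 and 3.3 CPM in rescue cells, against 5.12 to 7.64 CPM in wt cells; -1.14 ± 0.43, adjusted p = 0.038), 2 of 10 in all, or 1 of 9 without Slc7a11 (35.1% of all genes, 17.7% lower). Both calls were lost without any 1 rescue library, Slc7a11 also without wt 2 or 3 and Slc43a1 without wt 2, 3 or 4 (adjusted p up to 0.15). The filter kept Slc7a11 through groups other than rescue, so its p adds nothing to the counts. Slc7a5 stood at 294 ± 7.51 CPM in rescue cells and 295 ± 22.9 CPM in wt cells (-0.01 ± 0.13).

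The comparison of rescue with CD28-/- cells and that of rescue with wt cells share the rescue libraries. In the rescue libraries at 24 h, 3 of 5 regulatory T cell markers were higher and 1 lower than in CD28-/- cells (summed 110 to 130 CPM, against 61 to 75.3 CPM), and 3 of 7 NK and CD8 cell markers were higher (52.3 to 60.6 CPM, against 25.7 to 28.4 CPM), while 4 of 6 CD4 T cell markers were lower (2680 to 3050 CPM, against 3110 to 3630 CPM). Against wt cells, 2 of 5 regulatory T cell markers were higher and 2 lower in rescue cells (wt 58.6 to 66.3 CPM). Of 7 NK and CD8 cell markers 2 were higher and 1 lower (wt 25.7 to 36.6 CPM). Of 6 CD4 T cell markers 2 were higher (wt 2480 to 2920 CPM). Of 9 myeloid markers 2 were lower (3.89 to 5.06 CPM, against 4.35 to 9.55 CPM). Their part was not tested. The effect of the transgene did not differ by test between the CD28-/- and the CD28-bearing background for any member (0 of 10 by edgeR and by DESeq2, 0 at an unadjusted p under 0.05, background 2.11%), and for Slc7a5 that difference was 0.00 ± 0.17.

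**Figure D3:**
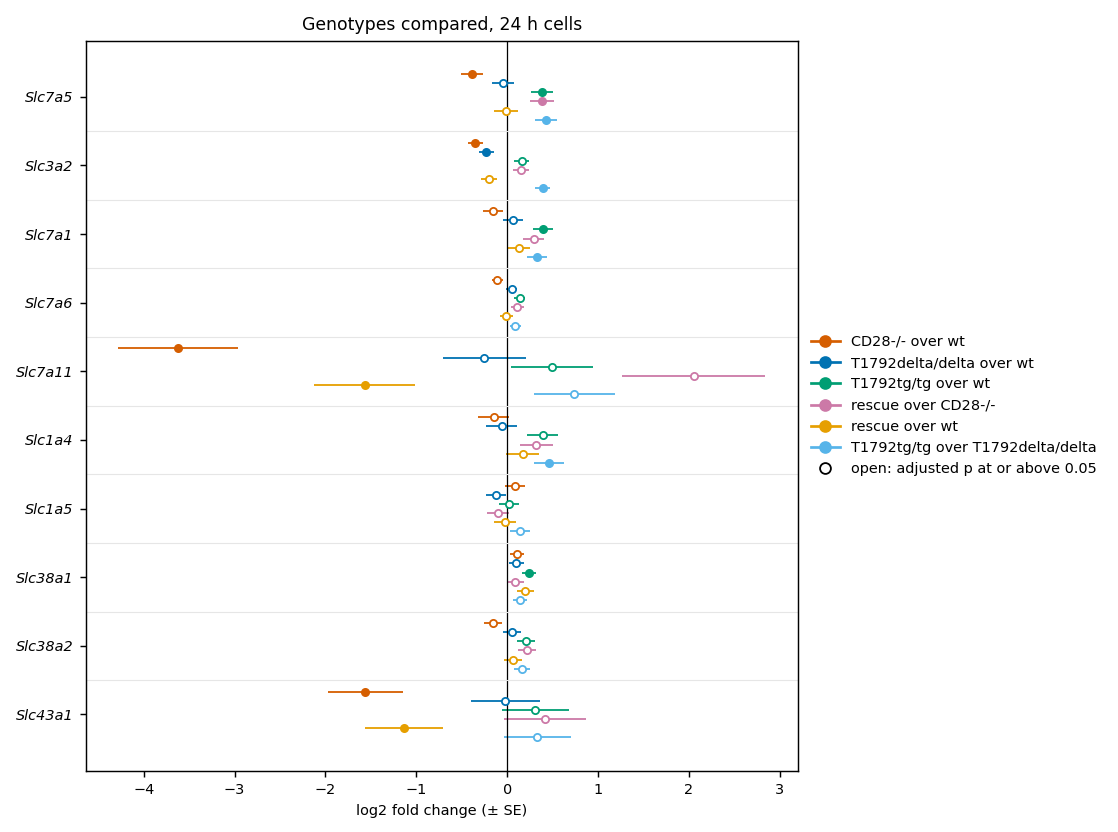
Log2 fold change at 24 h (x axis, points with SE) for the 10 transporters (rows) in 6 comparisons of genotypes (colours); open points had an adjusted p of 0.05 or more. Slc7a11 is at -3.62 for CD28-/- over wt and Slc43a1 at -1.56, while most other points lie within 0.5 of 0.

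In naive cells the transgene went with lower Slc7a1 and Slc7a6 transcripts. In T1792tg/tg against wt cells 3 members were lower and 1 higher, where 23.1% of all genes were called, 12.6% lower and 10.5% higher. Slc7a1 had 94.1, 76.3, 59 and 86.8 CPM in naive T1792tg/tg cells, against 130, 114, 122 and 133 CPM in naive wt cells (-0.66 ± 0.11, adjusted p = 6.3e-05). Slc7a6 had 63.4, 67.9, 69.1 and 63.3 CPM, against 79.4, 85.1, 86.7 and 79.7 CPM (-0.33 ± 0.06, adjusted p = 0.00029). The groups did not overlap for either gene, which only describes genes already called on these libraries. Slc7a1 was thus lower in T1792tg/tg than in wt cells when naive and higher at 24 h, the largest of the interactions that passed the test.

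Slc1a5 had 175, 231, 284 and 179 CPM in naive T1792tg/tg cells, against 229, 320, 292 and 258 CPM in naive wt cells, with overlap (-0.34 ± 0.11, adjusted p = 0.02). It lost its call without T1792tg/tg 1 or 4 or wt 2 or 3, and with only the compared groups in the fit (-0.33, adjusted p = 0.16). Slc1a4 went the other way, with 2.99, 3.14, 2.25 and 3.95 CPM in naive T1792tg/tg cells, against 2.2, 1.73, 1.51 and 1.32 CPM in naive wt cells (0.87 ± 0.22, adjusted p = 0.0034). Against naive T1792delta/delta cells, Slc7a1 (-0.68 ± 0.11), Slc7a6 (-0.29 ± 0.06) and Slc1a4 (0.78 ± 0.22) were called, 2 lower and 1 higher (31.2% of all genes, 15.6% lower and 15.5% higher), the last not when only those groups were fitted (adjusted p = 0.12).

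The lower level of these genes in naive cells was also seen with the transgene on the CD28-/- background. Slc7a6 had 66.8, 58.9 and 72.7 CPM in naive rescue cells, against 77.6, 89.1, 94.7 and 89.2 CPM in naive CD28-/- cells (-0.41 ± 0.07, adjusted p = 8.6e-05). Slc1a5 had 199, 176 and 215 CPM, against 258, 298, 309 and 243 CPM (-0.49 ± 0.12, adjusted p = 0.003). Slc7a1 had 85.4, 72.5 and 95.4 CPM, against 91.3, 118, 113 and 116 CPM (-0.38 ± 0.12, adjusted p = 0.031), a call lost without rescue 1 or 2 or CD28-/- 2, 3 or 4 (adjusted p up to 0.19). These were 3 of 10, all lower (16.8% of all genes, 8.92% lower).

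Against naive wt cells, rescue cells were lower for 5 of 10 members and higher for 0 (26.1% of all genes, 13.6% lower). These were Slc7a1 (-0.56 ± 0.12, adjusted p = 9e-04), Slc7a6 (-0.32 ± 0.07, adjusted p = 0.00069), Slc1a5 (-0.48 ± 0.12, adjusted p = 0.0023), Slc3a2 (-0.34 ± 0.09, adjusted p = 0.0039) and Slc38a2 (-0.42 ± 0.10, adjusted p = 0.0022). Slc38a2 had 679, 626 and 752 CPM in naive rescue cells, below the 782 to 1010 CPM of naive wt cells. Slc3a2 lost its call when only the compared groups were fitted (-0.33, adjusted p = 0.057).

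Naive T1792delta/delta cells differed from naive wt cells in 0 of 10 members by edgeR and by DESeq2, with 2 at an unadjusted p under 0.05 (background 5.19%). Naive CD28-/- cells had 1 of 10, Slc7a5 (14.8% of all genes, 7.34% lower), with 54.4, 63.7, 60.4 and 59.2 CPM, against 75.8, 67.7, 72.5 and 85.6 CPM in naive wt cells (-0.34 ± 0.12, adjusted p = 0.049). The ranges did not overlap, but the call was lost without any CD28-/- library, without wt 1, 3 or 4, and with a term for sex (-0.31, adjusted p = 0.069).

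Regulatory T cell markers differed in most of the naive comparisons, not always in one direction. Of 5, 3 were higher in naive T1792tg/tg than in naive wt cells (summed 112 to 153 CPM, against 82.9 to 98.4 CPM), and 2 were higher in naive rescue than in naive CD28-/- cells (75.4 to 110 CPM, against 60.8 to 67.8 CPM). In naive rescue against naive wt cells 1 was higher and 2 lower (75.4 to 110 CPM, against 82.9 to 98.4 CPM), and in naive CD28-/- against naive wt cells 1 was higher and 3 lower (60.8 to 67.8 CPM, against 82.9 to 98.4 CPM). In naive T1792delta/delta against naive wt cells 0 of 5 were called, and 3 of 5 were higher in naive T1792tg/tg than in naive T1792delta/delta cells (112 to 153 CPM, against 82 to 98.5 CPM). Of 9 myeloid markers 5 were lower in that last pair (114 to 172 CPM, against 177 to 247 CPM), 3 were lower in naive rescue than in naive wt cells (101 to 106 CPM, against 108 to 153 CPM) and 2 in naive CD28-/- than in naive wt cells (66.1 to 149 CPM, against 108 to 153 CPM). In naive T1792delta/delta against naive wt cells 3 were higher (177 to 247 CPM, against 108 to 153 CPM). Naive T1792tg/tg against wt and naive rescue against CD28-/- cells each had 1 lower. Of 3 red cell markers 1 was higher in naive T1792delta/delta than in naive wt cells (1180 to 5050 CPM, against 310 to 949 CPM). All 3 were lower in naive T1792tg/tg than in naive T1792delta/delta cells (95.3 to 480 CPM). Of 7 NK and CD8 cell markers 1 was higher in naive T1792tg/tg than in naive wt cells (summed 93 to 139 CPM, against 81.8 to 89.6 CPM). In naive rescue cells 1 was higher and 2 lower than in naive wt cells (93.8 to 102 CPM), and 1 higher than in naive CD28-/- cells (79.5 to 98.8 CPM). Between naive T1792tg/tg and T1792delta/delta cells 1 was higher and 1 lower (78 to 108 CPM in the latter). None of these markers was at 0 throughout a group, and their part in the transporter differences was not tested.

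**Figure D4:**
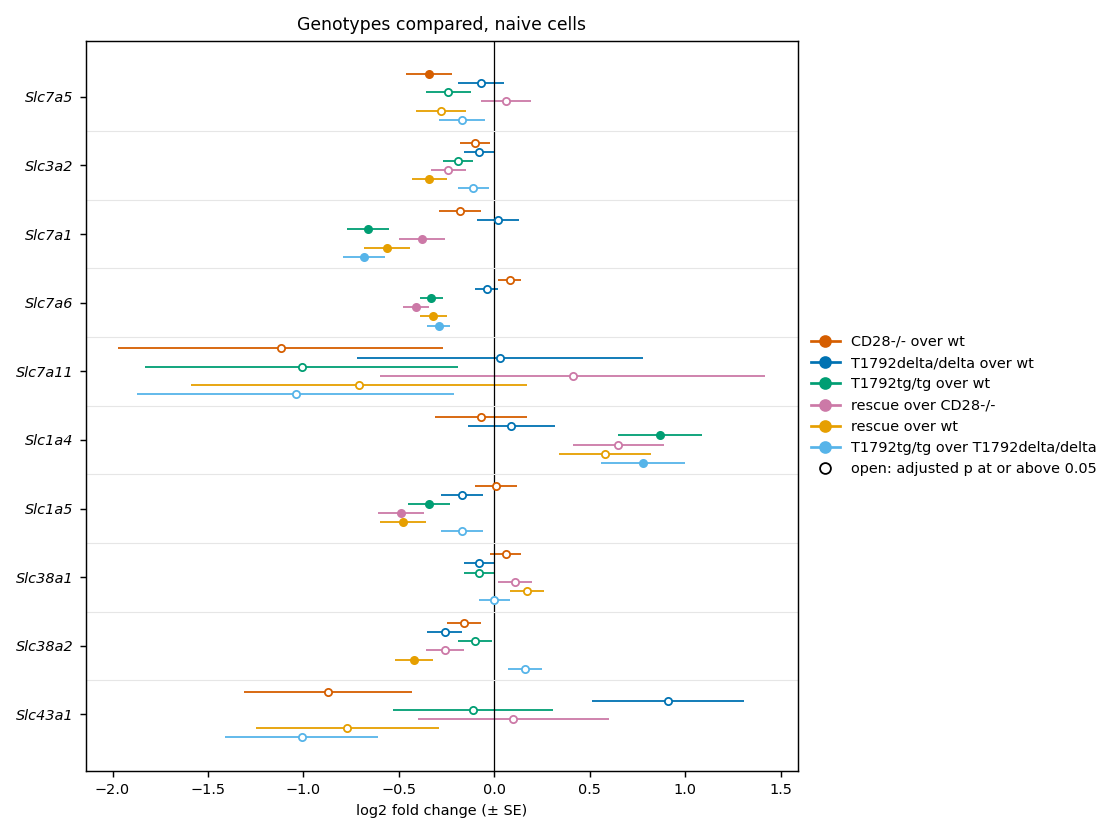
Log2 fold change in naive cells (x axis, points with SE) for the 10 transporters (rows) in 6 comparisons of genotypes (colours); open points had an adjusted p of 0.05 or more. Slc7a1 is at -0.66 for T1792tg/tg over wt and at -0.56 for rescue over wt, and Slc1a4 at 0.87 for T1792tg/tg over wt.

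Slc43a1 and red cell transcripts both varied widely among naive libraries. In naive T1792delta/delta libraries Slc43a1 had 9.48, 5.13, 6.97 and 1.88 CPM, and 3 red cell markers summed to 5050, 2610, 1920 and 1180 CPM. In naive wt libraries it had 2.5, 2.56, 5.06 and 2.29 CPM, with red cell sums of 949, 563, 391 and 310 CPM, so here the highest sum and the highest Slc43a1 fell in different libraries. Naive T1792tg/tg libraries had 2.99, 1.57, 4.5 and 2.55 CPM of Slc43a1, with red cell sums of 480, 95.3, 261 and 136 CPM. CD28-/- 1 had 3.98 CPM with a red cell sum of 450 CPM, against 0.781 to 1.18 CPM and sums of 18.4 to 131 CPM in the other 3 naive CD28-/- libraries. Rescue 2 had 3.57 CPM with a sum of 796 CPM, against 1.1 and 0.812 CPM with sums of 40.1 and 37.4 CPM. Naive CD28-/- 1 was also the highest of its group in summed B cell markers (396 CPM, the other 3 191 to 215) and myeloid markers (149 CPM, the other 3 66.1 to 87.5). The part of red cells or of these other cells in the level was not tested.

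Naive CD28-/- 1 and naive rescue 2 had the highest Slc43a1 of their groups, so leaving them out must lower the naive mean and raise the response, and the values without them are a description. The response to stimulation was then 1.62 in rescue cells and 1.23 in CD28-/- cells, against 0.68 ± 0.50 and 0.35 ± 0.45 with all libraries. Naive CD28-/- against naive wt cells was then -1.75, against -0.87 ± 0.44 with all libraries.

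**Figure D5:**
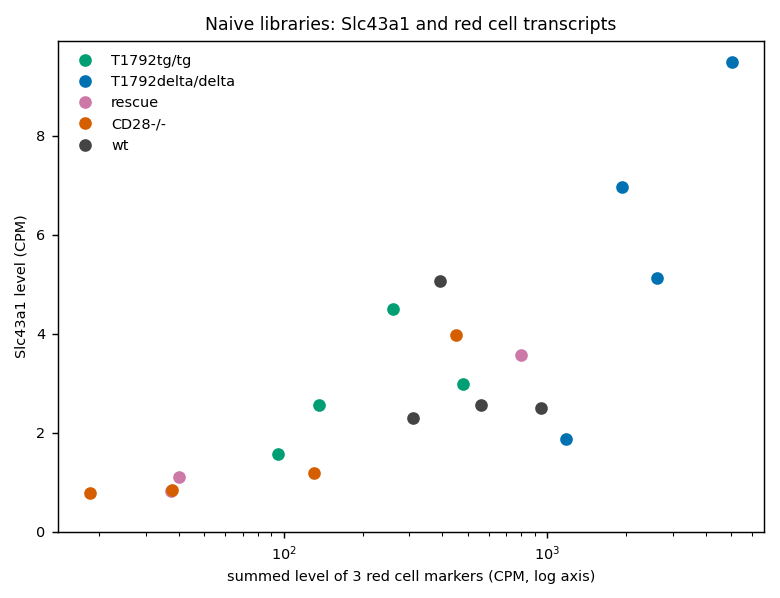
Level of Slc43a1 (y axis, CPM) against the summed level of 3 red cell markers (x axis, CPM, log axis) in the 19 naive libraries, coloured by genotype. Libraries with sums of 18.4 to 40.1 CPM had 0.781 to 1.1 CPM of Slc43a1, and the library with the highest sum, 5050 CPM, had 9.48 CPM. T1792delta/delta 4, with a sum of 1180 CPM, had 1.88 CPM.

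The 10 genes were read beside other amino acid transporters and the pathways they feed. Of 25 other transporters that passed the filter, 5 rose and 14 fell in wt cells at 24 h, where 41.3% of all genes rose and 43.9% fell, with a median log2 fold change of -0.77, against -0.06 over all genes. Slc16a10, which carries aromatic amino acids, rose (1.47 ± 0.11), as did Slc6a9, a glycine carrier (2.44 ± 0.34), and Slc7a3, another arginine carrier (1.97 ± 0.24). The leucine carrier Slc43a2 fell (-2.27 ± 0.12), and so did the lysosomal genes Slc38a9, a sensor of arginine for mTORC1 (-2.10 ± 0.11), and Slc36a1 (-1.92 ± 0.10). At 24 h these 3 were higher in CD28-/- than in wt cells, by 1.12 ± 0.12, 0.70 ± 0.11 and 0.72 ± 0.10.

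Of 28 genes of amino acid sensing and mTORC1, 12 rose and 9 fell in wt cells, with a median of 0.04, and at 24 h 9 were higher and 4 lower in CD28-/- than in wt cells, where 51.5% of all genes were called. The leucine-binding mTORC1 inhibitor Sesn2 was lower in CD28-/- cells (10.9 ± 0.361 CPM, against 24.7 ± 1.75 CPM in wt cells), while its relatives Sesn1 (1.32 ± 0.07) and Sesn3 (1.06 ± 0.07) were higher.

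The amino acid response list held Atf4, the factor that cells short of amino acids use to raise transporters and amino acid synthesis, and genes it is known to drive. Of its 20 genes, 14 were lower and 1 higher in CD28-/- than in wt cells, with a median log2 fold change of -0.71 against -0.03 over all genes, of which 27.8% were lower. Cth, which makes cysteine, stood at 0.61 ± 0.0948 CPM in CD28-/- and 7.27 ± 0.745 CPM in wt cells (-3.56 ± 0.28), and the one-carbon enzyme Mthfd2 at 114 ± 4.56 CPM in CD28-/- and 274 ± 12.8 CPM in wt cells (-1.26 ± 0.07). Atf4 itself was at 327 ± 5.18 CPM in CD28-/- and 541 ± 23.8 CPM in wt cells (-0.73 ± 0.12, adjusted p = 6.4e-06). In rescue against CD28-/- cells 6 of the 20 were higher and 0 lower (18.4% of all genes called, 9.52% higher), and Cth stood at 1.99 ± 0.256 CPM in rescue cells. Against wt cells at 24 h, rescue cells remained lower for 10 of the 20 and were higher for 1 (35.1% of all genes called, 17.7% lower). The median there was -0.49, against -0.02 over all genes. Atf4 at 24 h stood at 369 ± 25.2 CPM in rescue, 384 ± 20.7 CPM in T1792delta/delta and 563 ± 35.4 CPM in T1792tg/tg cells. Of 12 glutathione genes 8 were lower and 1 higher in CD28-/- than in wt cells at 24 h, and of 12 genes of amino acid use also 8 lower and 1 higher. Of all genes, 51.5% were called and 27.8% lower, and the medians of the 2 lists were -0.28 and -0.31, against -0.03 over all genes.

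Myc, which is known to raise Slc7a5 and other transporters in activated T cells, stood at 565 ± 30.3 CPM in T1792tg/tg, 414 ± 36.1 CPM in T1792delta/delta, 454 ± 12.6 CPM in rescue, 361 ± 17 CPM in CD28-/- and 496 ± 9.59 CPM in wt cells at 24 h. In naive cells it was lower than in wt cells in all 4 genotypes, by 0.46 ± 0.09 in T1792tg/tg, 0.32 ± 0.09 in T1792delta/delta, 0.90 ± 0.10 in rescue and 0.83 ± 0.09 in CD28-/- cells on the log2 scale.

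Promoters were read for motifs of these factors, 250 bases before to 50 after a gene's start (RefSeq, GRCm38.p6), and 7 of the 10 members had such a window. Slc7a5, Slc1a5 and Slc38a1 had none. The C/EBP-ATF element, to which ATF4 binds, was sought as TGATGNAA on both strands. Slc7a11 held 2, Slc1a4 held 1 and the other 5 none, where 3.97% of 32851 promoters held at least 1. The windows that held an element are shown. Capitals mark the element, and both are given in the direction of the gene, on the minus strand. The part of ATF4 in the transporter levels was not tested.
Slc7a11, chr3:50443564-50443863: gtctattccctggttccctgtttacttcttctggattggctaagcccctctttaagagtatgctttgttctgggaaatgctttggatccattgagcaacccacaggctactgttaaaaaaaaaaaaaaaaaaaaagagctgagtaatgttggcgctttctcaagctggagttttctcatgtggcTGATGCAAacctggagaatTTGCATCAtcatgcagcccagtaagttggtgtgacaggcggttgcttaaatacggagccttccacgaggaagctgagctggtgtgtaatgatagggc
Slc1a4, chr11:20332664-20332963: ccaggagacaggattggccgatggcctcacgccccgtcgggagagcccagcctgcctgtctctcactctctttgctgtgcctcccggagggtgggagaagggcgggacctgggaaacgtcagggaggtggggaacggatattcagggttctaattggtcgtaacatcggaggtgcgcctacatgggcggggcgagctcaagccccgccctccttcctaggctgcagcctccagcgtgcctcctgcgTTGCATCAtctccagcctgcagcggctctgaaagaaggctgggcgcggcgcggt
The elements begin at -66 (plus strand) and -47 (minus strand) from the Slc7a11 start of this window, which lies inside the gene span given above and is not its outermost start, and at -4 (minus strand) from that of Slc1a4. CACGTG, the E-box bound by MYC among others, was in the window of 1 member, Slc43a1, against 7.15% of all promoters. A match says nothing of binding, and its lack nothing about the factor.

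Likeness was measured as the root mean square difference of centred group means of log2(CPM + 1) over the 10 groups, smaller meaning more alike. Among 10102 genes the nearest to Slc7a5 were Atad3a at 0.095, Ddx56 at 0.10, Trmt61a at 0.102, Carm1 at 0.103 and Utp4 at 0.111, where Slc7a5 itself spans 2.67 on that scale. The nearest to Slc3a2 was Eif5 (0.060), to Slc7a1 Pprc1 (0.127), to Slc7a6 Nvl (0.050), to Slc1a4 Gtf2h4 (0.128), to Slc1a5 Tut1 (0.11), to Slc38a1 Mtmr9 (0.052), to Slc38a2 Galnt10 (0.089) and to Slc43a1 Crip2 (0.245). For Slc7a11 it was Zcchc10 (0.082), a value set largely by the added 1 at such low levels. Within the 10, Slc7a6 and Slc38a1 were nearest to each other at 0.156, and Slc38a2 was far from every other member, 1.053 from the nearest, Slc3a2.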

How the data were processed

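The 38 libraries were polyA RNA of naive or 24 h stimulated CD4 T cells of 5 genotypes, sequenced as stranded single-end reads. The authors deposited whole-number counts per Entrez gene with a gene length. FastQC 0.11.5, STAR 2.5.2a, R 3.5, edgeR 3.24.3 and mm10 are named in the submitters' processing notes; for the counting tool, annotation and strand setting no source used here gives a name, so reads of overlapping or antisense genes and of close paralogs may be split or shared. Labels name single mice as the source of each library.

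From the deposited counts, edgeR 4.0.16 (R 4.3.3) fitted 1 coefficient for each of the 10 groups over all 38 libraries, with filterByExpr, TMM scaling (factors 0.931 to 1.07) and the quasi-likelihood F test. P-values were adjusted by Benjamini-Hochberg over 13650 genes in each of 22 comparisons, and every adjusted p in the text is from that fit unless an alternative is named. The SE is the log2 fold change divided by the root of F. The scripts were tested on simulated data. CPM uses the TMM-scaled totals. Symbols came from RefSeq for 23968 of 24028 genes, and the others held 0.0749% of counts.

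Alternatives were DESeq2 1.42.0, its size factors, no filter and a stricter one, only the compared groups, replicate blocks, a term for sex read from Xist, and leaving out each library; plain library totals were tried for the levels per kilobase only. Naive and 24 h libraries with the same number deviated together in all 4 pairs of wt (r 0.19 to 0.52) and of T1792delta/delta (0.32 to 0.50). For wt 1 and wt 3, however, a library of another number matched better. In the other genotypes r ran from -0.11 (T1792tg/tg 1) to 0.49 (T1792tg/tg 2). Whether libraries of the same number came from the same mouse was not tested. The main fit used no pairing, and the replicate block within genotype was applied to every genotype. The members, lists and markers were chosen with earlier results of these data known. Genes named outside the 10 were, for each list and comparison, up to 3 called in each direction with the smallest p, and the genes nearest in pattern. Their lists were other amino acid transporters, mTORC1 and sensing, amino acid response, glutathione and amino acid use. The precision of a level is limited by counting for Slc7a11 and Slc43a1, and by the 3 or 4 mice of a group for the others.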

Additional observations from a re-analysis of the deposited data

Results flagged for a closer look

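In 7 of 80 sets of 4 libraries, 1 library stood apart from the other 3 by Dixon's test at 95%, where chance flags about 1 in 20. At 24 h, Slc7a1 had 232 CPM in CD28-/- 2, against 205 to 208 CPM in the other 3. T1792tg/tg 2 stood low at 24 h for both Slc1a4 (15.8 CPM, the others 18.4 to 18.7) and Slc38a2 (179 CPM, the others 208 to 212). In naive cells, Slc1a4 had 0.572 CPM in T1792delta/delta 3 (the others 2.11 to 2.34) and Slc38a1 had 178 CPM in wt 4 (the others 200 to 203). Slc43a1 had 3.98 CPM in naive CD28-/- 1 (the others 0.781 to 1.18) and 5.06 CPM in naive wt 3 (the others 2.29 to 2.56).

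The response to stimulation differed between genotypes by the interaction test for 8 pairs of gene and comparison. Between T1792tg/tg and wt cells the log2 difference was 0.62 for Slc7a5, 0.36 for Slc3a2, 1.05 for Slc7a1 and 0.47 for Slc7a6. Between rescue and CD28-/- cells it was 0.39 for Slc3a2, 0.67 for Slc7a1, 0.51 for Slc7a6 and 0.49 for Slc38a2.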

How the results depend on the processing

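Of 82 calls on members, 65 held under every alternative that tested the gene (the filter at a mean of 5 CPM leaves Slc7a11 out), 17 were lost at least once and 0 changed sign. Beside the changes listed here, each over 1.5 times, the number of called members was larger by at most 2 in 15 cases and smaller in 15 (7 of these with only the compared groups). With DESeq2 it was 2 in place of 1 for rescue over CD28-/- and 1 in place of 2 for rescue over wt cells at 24 h, 5 in place of 3 for naive rescue over CD28-/- cells, and 1 in place of 0 for the CD28-/- interaction. Without the low-count filter it was 0 in place of 1 for T1792delta/delta over wt at 24 h and for naive CD28-/- over wt cells. With only the compared groups it was, at 24 h, 0 in place of 1 for T1792delta/delta over wt, 5 in place of 3 for T1792tg/tg over wt and 4 in place of 1 for rescue over CD28-/- cells. The replicate block over all groups gave 0 in place of 1 for naive CD28-/- over wt cells. The replicate block within genotype ended the call of Slc3a2 in the T1792tg/tg interaction (0.36, adjusted p = 0.066) and in the rescue interaction (0.39, adjusted p = 0.07) and no other call. A term for sex gave 0 for T1792delta/delta over wt and 1 in place of 3 for T1792tg/tg over wt cells at 24 h, and 0 for naive CD28-/- and 1 in place of 0 for naive T1792delta/delta over wt cells. Sex and the CD28-/- allele overlap, since all 7 mice of those groups read as female in each state. Without naive CD28-/- 1 and naive rescue 2 the counts were 1 in place of 0 for naive T1792delta/delta over wt cells and 2 in place of 0 for the CD28-/- interaction. Leaving out 1 library at a time gave, at 24 h, 4 to 4 for CD28-/- over wt, 0 to 1 for T1792delta/delta over wt, 0 to 3 for T1792tg/tg over wt, 0 to 1 for rescue over CD28-/-, 0 to 3 for rescue over wt and 2 to 4 for T1792tg/tg over T1792delta/delta cells. In naive cells it gave 0 to 1 for CD28-/- over wt, 0 to 1 for T1792delta/delta over wt, 3 to 5 for T1792tg/tg over wt, 2 to 5 for rescue over CD28-/-, 5 to 6 for rescue over wt and 3 to 5 for T1792tg/tg over T1792delta/delta cells. For the interactions it gave 0 to 2 (CD28-/-), 3 to 6 (T1792tg/tg) and 2 to 4 (rescue). The cause of these moves was not tested. Slc7a11, at 0 to 38 counts a library, is limited by depth.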
